A study of Mus musculus with 56 samples.

Results

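The acyl-CoA thioesterase family was followed in mouse liver through 9 members, Acot1, Acot2, Acot3, Acot4, Acot7, Acot8, Acot11, Acot12 and Acot13. Each gene was taken by its symbol from the RNA-seq table, which lists 23813 named genes, and the first transcript listed for the symbol gave its value. The members were chosen by family name and by their fold changes between the groups of these same libraries, which were already known, so that their levels and fold changes are given as a description and carry no test of their own. The study compared the livers of male mice in 3 groups of 4. Hypothyroid WT mice were fed a low iodine diet containing 0.15% propylthiouracil (PTU), an inhibitor of hormone production in the thyroid, over 16 days. Hyperthyroid WT mice ate this diet too and received 5 μg of triiodothyronine (T3) by injection during the last 4 to 6 days, where vehicle was given to the hypothyroid mice. Hypothyroid L-NCOR1ΔID mice were fed PTU without T3, and their livers express a form of the corepressor NCOR1 that lacks the domains through which it contacts the thyroid hormone receptor (TR). L-NCOR1ΔID mice were kept on a mixed C57BL/6;129S background. Over all animals of the study, age averaged 4.97 months (SD 1.76) for 14 hypothyroid WT mice, 4.71 months (SD 1.31) for 13 hyperthyroid WT mice and 3.11 months (SD 1.29) for 7 hypothyroid L-NCOR1ΔID mice, and the age of each sequenced mouse was not used here. Both comparisons below use the same 4 hypothyroid WT libraries.

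Acyl-CoA thioesterases split a fatty acyl-CoA into the free fatty acid and coenzyme A, the reverse of the step catalysed by acyl-CoA synthetases. They thereby set the balance between activated and free fatty acids in each compartment of the hepatocyte. The type I enzymes are close relatives encoded side by side, with ACOT1 in the cytosol, ACOT2 in mitochondria and ACOT3 and ACOT4 in peroxisomes, and several of them are known targets of the fatty acid receptor PPARα. The type II enzymes are built from hotdog-fold domains and include ACOT7 in the cytosol, ACOT8 in peroxisomes, ACOT11 and ACOT12, which also carry a lipid-binding START domain, and the small ACOT13, which associates with mitochondria.

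RNA levels are given as RPKM, reads scaled by transcript length and by the number of aligned reads, and libraries held 21376369 to 42837436 uniquely aligned reads. The hyperthyroid libraries were the shallowest (21376369 to 26189084 reads) and the L-NCOR1ΔID libraries the deepest (38221861 to 42837436). The T3-responsive genes Thrsp, Dio1, Me1, Hr and Klf9 were all called higher in the hyperthyroid mice, without overlap with the hypothyroid WT mice. Ncor1 RNA was at 14.1 to 15.6 RPKM in hypothyroid WT and 12.1 to 13.9 RPKM in L-NCOR1ΔID mice, which over the whole transcript does not check the deletion. Hepatocyte markers dominated every library, with a summed level of 7 genes between 19700 and 49490 RPKM, the lower end coming from hyperthyroid mice. Most of this sum was Alb, with a mean of 31800 RPKM in hypothyroid WT and 14320 RPKM in hyperthyroid mice. After T3, Alb and Ttr were called lower, and Cps1 was below without overlap but not called. Hnf4a was above without overlap but not called, and Apoa1, Tat and G6pc overlapped. All 6 Kupffer cell and macrophage markers (Clec4f, Vsig4, Cd5l, Timd4, Marco and Csf1r) were called higher after T3, with a summed level of 131 to 215 RPKM in hyperthyroid against 42.0 to 59.2 RPKM in hypothyroid WT mice, and their part in the results below was not tested. In whole liver, fewer cells of a type and less RNA per cell cannot be told apart. L-NCOR1ΔID replicate 1 stood apart in several genes described below, so that values without it are given where it matters. This library held 32.3 RPKM of Ly6d, the gene of a cell surface protein, against 0.90 to 4.31 RPKM in the other L-NCOR1ΔID libraries (a blood marker singled out after its values were seen). The other blood markers did not set it apart. Ptprc and Cd3e were highest in replicate 2 of this group. Cd79a (0.167 RPKM against at most 0.139) and S100a8 (0.822 RPKM against at most 0.797) were only slightly highest in replicate 1.

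The type I genes lie in tandem on the plus strand of chromosome 12 in the mm9 genome, in the order Acot2 (chr12:85328811-85334823), Acot1 (chr12:85350448-85358621), Acot4 (chr12:85379329-85385673), Acot3 (chr12:85393094-85400515), Acot5 and Acot6, as annotated by GENCODE M1. The type II genes are scattered, with Acot11 (chr4:106417160-106477603, minus strand) and Acot7 (chr4:151552243-151645964, plus strand) on chromosome 4, Acot8 (chr2:164618268-164630382, minus strand) on chromosome 2, and Acot12 (chr13:91881117-91925753, plus strand) and Acot13 (chr13:24909817-24923386, minus strand) on chromosome 13. The study also merged the regions of histone H3 acetylation (H3K27 or H3K9) found by ChIP-seq in either hormone state into a list of 37200 regions, which gives positions and no amounts. The paper separately provides acetylation levels, their changes and overlap with TR binding sites for acetylated domains, and these were not used here. The annotated start of every one of the 9 genes lay inside such a region, as did the starts of 86.8% of the 11809 genes that were tested for T3 and could be placed by name. The region at the start of Acot4 was 10811 bases long and ran over the whole gene, and that at Acot3 covered 6224 bases. Acot11 carried 4 acetylated regions, of which the largest, 18952 bases, lay inside the gene at 23984 to 42935 bases from its start. Within the cluster Acot6 also had its start in an acetylated region and Acot5 did not.

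The 250 bases before the annotated start of 4 genes are printed here, because these genes gave the largest rise (Acot11), the largest fall (Acot3) and the closest matches to a nuclear receptor half-site repeat (Acot4 and Acot12). They were read from mm9 in the direction of transcription, and capitals mark the best match on either strand to the half-site AGGTCA repeated directly after a spacer of 1 base of any kind (DR1), an element that PPARα and HNF4α are known to bind.
Acot11 (chr4:106477604-106477853, minus strand): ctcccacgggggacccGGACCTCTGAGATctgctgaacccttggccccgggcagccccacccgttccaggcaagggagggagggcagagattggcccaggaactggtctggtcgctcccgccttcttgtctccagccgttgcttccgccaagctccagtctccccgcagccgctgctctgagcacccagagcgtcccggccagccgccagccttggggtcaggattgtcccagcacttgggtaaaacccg
Acot3 (chr12:85392844-85393093, plus strand): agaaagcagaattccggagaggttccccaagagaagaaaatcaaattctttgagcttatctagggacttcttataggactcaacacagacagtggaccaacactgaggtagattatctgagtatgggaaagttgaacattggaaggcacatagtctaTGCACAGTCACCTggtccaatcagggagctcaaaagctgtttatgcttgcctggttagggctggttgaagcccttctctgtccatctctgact
Acot4 (chr12:85379079-85379328, plus strand): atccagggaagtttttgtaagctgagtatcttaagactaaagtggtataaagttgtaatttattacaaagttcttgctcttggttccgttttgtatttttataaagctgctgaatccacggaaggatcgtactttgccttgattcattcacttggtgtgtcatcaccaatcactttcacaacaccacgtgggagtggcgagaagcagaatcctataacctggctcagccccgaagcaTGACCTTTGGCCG
Acot12 (chr13:91880867-91881116, plus strand): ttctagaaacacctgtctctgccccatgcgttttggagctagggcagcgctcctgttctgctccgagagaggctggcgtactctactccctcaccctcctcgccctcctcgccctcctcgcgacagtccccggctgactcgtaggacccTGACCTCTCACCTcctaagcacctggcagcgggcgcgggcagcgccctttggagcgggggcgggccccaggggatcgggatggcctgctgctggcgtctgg
The Acot12 window matched 11 of 12 letters, 101 to 89 bases before the start on the opposite strand, and 0.398% of 22350 promoter windows of this length held a match as good. Acot4 matched 10 of 12 letters directly before its start (2.72% of windows), Acot11 9 of 12 (19.2%) and Acot3 8 of 12 (71.7%). For the same half-site repeated after 4 bases of any kind (DR4), the element through which TR classically binds with RXR, the best match in the 9 windows was 9 of 12 letters, in Acot12 (17.3% of windows), and it overlaps the DR1 match. Acot11 reached 8 of 12 letters for DR4 (68.8% of windows). These are matches of letters in a short window and say nothing of binding or of elements elsewhere.

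All 4 type I genes fell after T3. Acot3, which encodes a peroxisomal thioesterase for long-chain acyl-CoA, changed most. Its level in hypothyroid WT mice was 18.0, 7.42, 8.81 and 18.9 RPKM in replicates 1 to 4, and in hyperthyroid mice 0.092, 0.107, 0.271 and 0.074 RPKM. The highest hyperthyroid library was far under the lowest hypothyroid one, and the fold change was -5.77 on the log2(RPKM + 0.1) scale (SE 0.35). The hyperthyroid values rested on 5 to 15 reads per library, against 598 to 1876 reads in hypothyroid WT mice, and they are close to the pseudocount of 0.1 RPKM. The size of the fall therefore depends on the scale, with a log2 fold change of -3.55 at a pseudocount of 1 RPKM and -6.56 at 0.01 RPKM, and a ratio of 97.6 between the group means. These read numbers were recovered from the RPKM values, which for each member came within 0.15 reads of whole numbers in 12 of 12 libraries at a single transcript length.

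Acot4, the neighbour of Acot3 with a peroxisomal product that prefers dicarboxylic acyl-CoA such as succinyl-CoA, was the most abundant type I gene in every group mean. It was at 28.1, 19.1, 20.02 and 24.4 RPKM in hypothyroid WT mice and at 4.14, 4.84, 5.65 and 3.57 RPKM in hyperthyroid mice. Groups did not overlap and the log2 fold change was -2.31 (SE 0.16). Acot1, encoding the cytosolic enzyme, was at 7.41, 6.53, 8.52 and 6.71 RPKM in hypothyroid WT and at 0.332, 0.664, 0.723 and 1.18 RPKM in hyperthyroid mice, a log2 fold change of -3.26 (SE 0.28). Acot2, whose product acts in the mitochondrial matrix, was the lowest type I gene in hypothyroid WT mice (2.499, 1.74, 1.65 and 2.37 RPKM) and fell to 0.307, 0.489, 1.05 and 0.557 RPKM. Its log2 fold change of -1.71 (SE 0.29) was the smallest of the 4, and with a pseudocount of 1 RPKM it came to -0.95 and missed the fold threshold.

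The type I genes resemble each other, which bears on how reads are assigned. Over the whole alignment, gaps counted as differences, the coding sequences of the GENCODE M1 transcripts were identical at 66.6% (Acot2 and Acot4), 72.2% (Acot3 and Acot4) and 77.0% (Acot2 and Acot3) of positions. The Acot1 model is shorter, at 1011 coding bases against 1266 to 1362, which lowers the same measure for its pairs. Of all 50-base windows in the Acot1 transcript, 47.1% also occurred, on either strand, in the transcript of another protein-coding gene, mostly Acot2. The shares were 27.7% for Acot2, 12.1% for Acot4 and 10.2% for Acot3. A read of this length or shorter that falls in such a stretch could come from either gene. The study states that its later steps used uniquely aligned reads, so a read that aligned equally well to both genes would count for neither. Read length is not given in the sources used here, and how many reads were affected was not tested. Acot7, Acot12 and Acot13 shared 0 such windows with any other protein-coding gene, and noncoding genes were not searched.

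**Figure D1:**
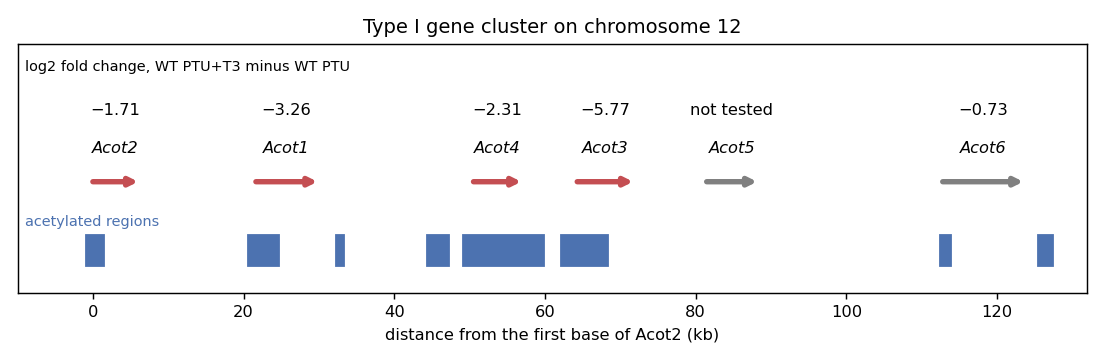
Type I genes on chromosome 12, drawn by distance in kilobases from the first base of Acot2, with the log2 fold change after T3 above each gene (arrows in red were called lower, grey were not called or not tested) and the acetylated regions within 5 kb of the genes as blue blocks. The 4 genes called lower are Acot2, Acot1, Acot4 and Acot3, with values from -1.71 to -5.77.

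Of the 5 type II genes, Acot11 was the only gene called after T3. Acot11, an enzyme of long-chain acyl-CoA hydrolysis known for its role in brown fat and liver lipid handling, was the lowest of the 9 genes in hypothyroid WT mice at 0.868, 1.39, 1.90 and 0.867 RPKM. After T3 it stood at 25.97, 16.9, 11.05 and 13.1 RPKM. Every hyperthyroid library was above every hypothyroid one, and the log2 fold change was 3.63 (SE 0.31). Acot12, the cytosolic enzyme that hydrolyses acetyl-CoA, was at 39.0, 37.9, 42.6 and 35.2 RPKM in hypothyroid WT mice and at 64.7, 64.2, 71.2 and 54.3 RPKM in hyperthyroid mice. Acot8, a peroxisomal thioesterase of broad specificity, was at 9.78, 12.05, 12.3 and 10.7 RPKM and at 15.8, 19.1, 18.4 and 16.3 RPKM. For both, the groups did not overlap, and the log2 fold changes of 0.71 (SE 0.09) and 0.63 (SE 0.10) were under the threshold of 1 used for T3.

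Acot13 and Acot7 overlapped between the hormone states. Acot13 ranged from 38.1 to 48.1 RPKM in hypothyroid WT and from 39.0 to 51.3 RPKM in hyperthyroid mice, with a log2 fold change of 0.07 (95% interval -0.18 to 0.32). Acot7 ranged from 12.7 to 14.6 RPKM and from 11.3 to 13.98 RPKM, with a log2 fold change of -0.15 (95% interval -0.34 to 0.04). Among all tested genes the median shift after T3 was 0.23 log2 units. When libraries were rescaled so that their median gene ratios matched, the values were -0.13 for Acot13, -0.35 for Acot7, 0.51 for Acot12, 0.43 for Acot8 and 3.43 for Acot11, so that the sign of Acot13 depends on the scaling.

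**Figure D2:**
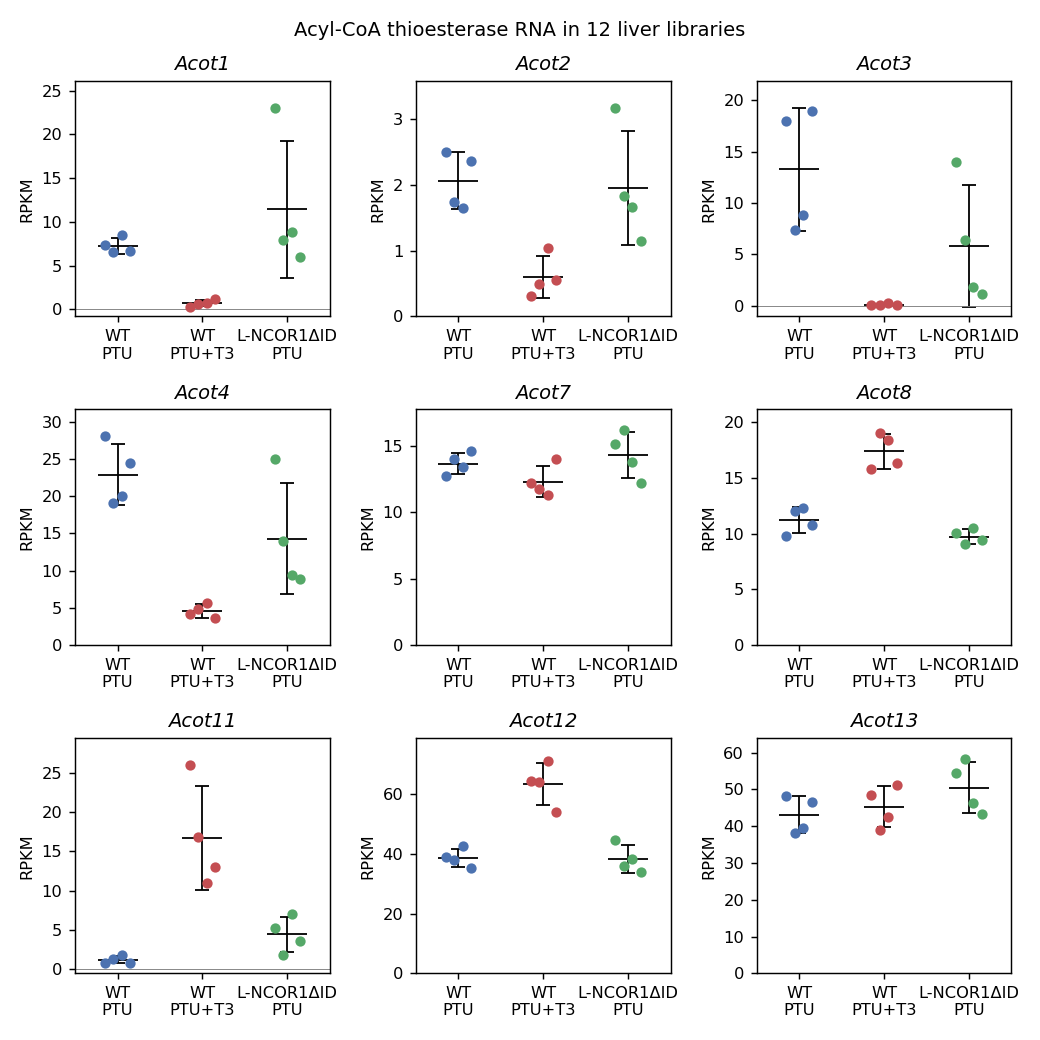
RPKM of the 9 genes in each of the 12 libraries (points), with the group mean and SD (black bars), for hypothyroid WT (WT PTU), hyperthyroid WT (WT PTU+T3) and hypothyroid L-NCOR1ΔID mice, each panel on its own linear axis. The type I genes Acot1 to Acot4 sit near the bottom in hyperthyroid mice, Acot11 rises to between 11.05 and 25.97 RPKM, and Acot7 and Acot13 overlap in the 3 groups.

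Calls for T3 required an adjusted p (limma) under 0.01 together with a change of more than 1 log2 unit, and by these limits 4 of 9 members were lower and 1 was higher. Among all 13941 genes tested, 3.47% were called lower and 8.28% higher, and the rescaling just described gave 640 lower and 805 higher genes in place of 484 and 1155. Without overlap, 3 members were above and 4 below, where 35.8% and 10.8% of all genes were. Nothing is read from these shares, since the members were chosen with this comparison known. The median log2 fold change was -2.78 over the 4 type I genes and 0.63 over the 5 type II genes.

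The tail of Acot11 overlaps another gene. Fam151a (chr4:106406494-106420897, plus strand) runs toward Acot11 on the opposite strand, and their exons share 1263 bases. Whether reads were counted by strand is not given in the sources used here, and without strand the reads of the shared stretch belong to both. Fam151a rose with Acot11, from 0.743, 1.17, 1.47 and 0.580 RPKM in hypothyroid WT to 19.8, 13.5, 7.91 and 10.4 RPKM in hyperthyroid mice, and the reads behind its value were 22.1% to 28.6% of those behind Acot11 in all 12 libraries. In a computation added after the overlap was seen, if every Fam151a read were also an Acot11 read and were taken away, the remaining 4387 bases of Acot11 would stand at 0.799 to 1.82 RPKM in hypothyroid WT, 10.8 to 24.9 RPKM in hyperthyroid and 1.87 to 6.70 RPKM in L-NCOR1ΔID mice. Because Fam151a held a similar share of the Acot11 reads in every library, this subtraction could not alter the ratio between groups by much and is no check of it. How the reads of the shared stretch divide between both genes was not tested. Acot8 shares 243 exon bases with Snx21 on the opposite strand, a gene named here after its values were seen, whose mean went from 3.39 RPKM in hypothyroid WT to 5.81 RPKM in hyperthyroid mice, and 17.7% of the 50-base windows of Acot8 also occur in Snx21. The noncoding gene 4732463B04Rik lies on the strand opposite Acot4 and Acot3 and shares 615 and 312 exon bases with them. Acot12 shares 149 exon bases with the noncoding gene 4833422C13Rik, also on the opposite strand. What part reads from these noncoding genes have in the values of Acot3, Acot4 and Acot12 was not tested.

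**Figure D3:**
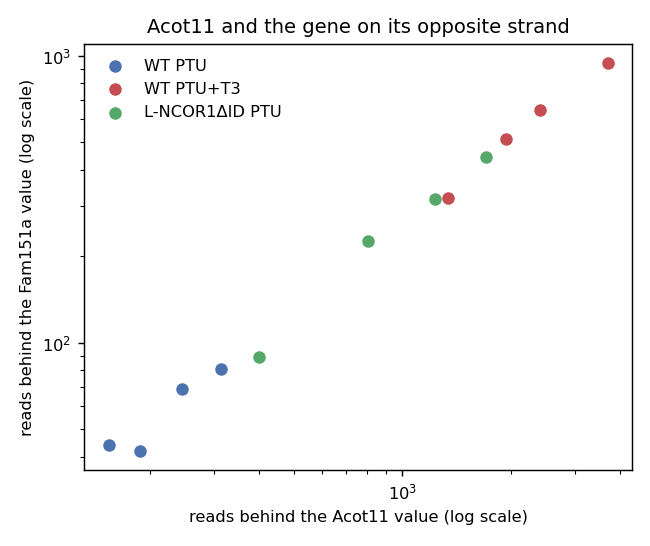
Reads behind the Fam151a value (vertical, log scale) against reads behind the Acot11 value (horizontal, log scale) in the 12 libraries, coloured by group. The points lie along a line on which Fam151a holds 22.1% to 28.6% of the reads of Acot11.

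Summed over the 9 genes, the hormone states overlapped in amount but not in the share of type I genes. The summed level was 153 ± 12.5 RPKM (SD, n = 4) in hypothyroid WT and 161 ± 7.77 RPKM in hyperthyroid mice, with overlap (138 to 166 and 154 to 172 RPKM). The 4 type I genes together held 25.2% to 33.6% of this sum in hypothyroid WT mice and 2.83% to 4.74% in hyperthyroid mice. Acot11 went from 0.522% to 1.28% of the sum to 6.82% to 15.1%. Type II genes summed to 103 to 110 RPKM and to 149 to 167 RPKM.

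In hypothyroid WT mice the order of mean levels was Acot13 (43.1 RPKM), Acot12 (38.7), Acot4 (22.9), Acot7 (13.7), Acot3 (13.3), Acot8 (11.2), Acot1 (7.29), Acot2 (2.06) and Acot11 (1.26). Neighbours whose libraries overlapped in this order were Acot13 and Acot12, Acot7 and Acot3, Acot3 and Acot8, and Acot2 and Acot11. In hyperthyroid mice Acot12 (63.6 RPKM) was first, without overlap with Acot13 (45.3), and Acot11 (16.7) had moved up to stand after Acot8, overlapping Acot8 (17.4) and Acot7 (12.3). Acot3 came last at 0.136 RPKM. In L-NCOR1ΔID mice Acot13 (50.5 RPKM) and Acot12 (38.3) again led, with overlap, and from Acot7 (14.3) down to Acot2 (1.95) each gene overlapped the next.

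**Figure D4:**
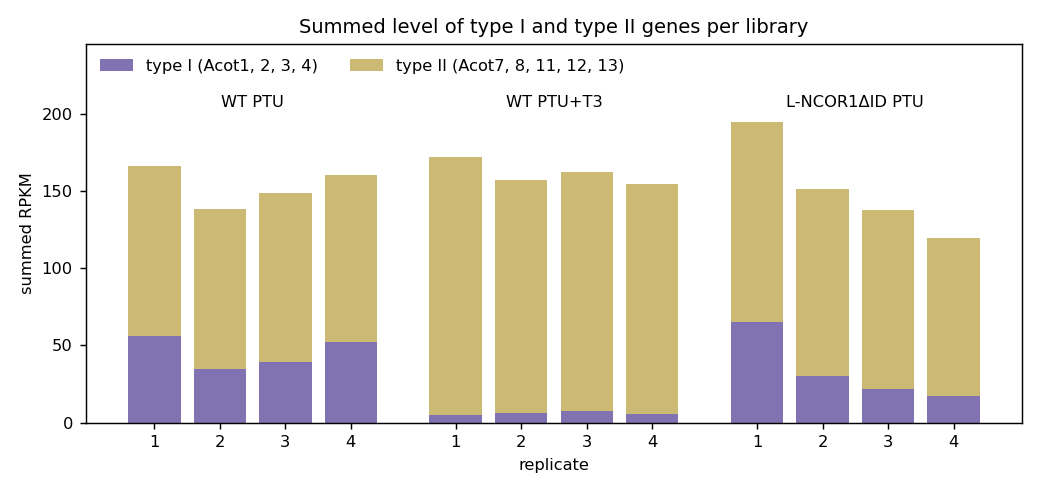
Summed RPKM of the type I genes (purple) and type II genes (sand) stacked for each of the 12 libraries, starting at 0. The type I part is 34.8 to 55.9 RPKM in hypothyroid WT, 4.87 to 7.69 RPKM in hyperthyroid WT and 17.1 to 65.2 RPKM in L-NCOR1ΔID mice.

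Hypothyroid L-NCOR1ΔID mice were compared with hypothyroid WT mice, both without T3. The paper reports that the mutant also lost the histone deacetylase HDAC3 at a number of sites not bound by TR. It proposes that the deleted domains may also matter for regulators other than TR. A difference in this comparison is therefore not specific to the contact of NCOR1 with TR. Age, which over all animals of the study averaged 3.11 months against 4.97 months, cannot be told apart from the mutation. The same holds for any difference in strain background. None of the 9 genes was called at an adjusted p under 0.01 by limma, 0 higher and 0 lower. Over all 13790 genes tested, 0.725% were called higher and 0.544% lower. All 9 overlapped with the WT libraries, where 7.78% of all genes lay wholly above and 5.36% wholly below.

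Acot11 was at 5.32, 1.86, 7.04 and 3.65 RPKM in L-NCOR1ΔID mice. Replicates 1, 3 and 4 were above all hypothyroid WT libraries, and replicate 2 at 1.86 RPKM was just under the highest WT value of 1.90 RPKM. The log2 fold change was 1.67 (SE 0.40, 95% interval 0.77 to 2.57), and 2.02 without replicate 2. Its adjusted p over all genes was 0.0515 by limma, and from 0.014 (without L-NCOR1ΔID replicate 2) to 0.13 over the alternatives run. All 4 values were under the lowest hyperthyroid value of 11.05 RPKM. Fam151a showed the like pattern at 4.11, 1.23, 5.49 and 3.08 RPKM.

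Acot3 spread widely among the L-NCOR1ΔID mice, at 14.03, 6.41, 1.87 and 1.14 RPKM, from within the WT range to well under it. Its log2 fold change was -1.67 (SE 0.71, 95% interval -3.28 to -0.06), and -2.29 without replicate 1. Acot4 followed the same libraries at 25.0, 13.9, 9.43 and 8.84 RPKM, with a log2 fold change of -0.79 (SE 0.30), and -1.10 without replicate 1. Replicates 2 to 4 were below all WT libraries for both genes, and replicate 1 was within the WT range.

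Acot1 was at 23.0, 7.99, 8.81 and 5.96 RPKM. Replicate 1 was far above the others, the log2 fold change was 0.45 (SE 0.35), and without this library it was 0.04. The same library was also the highest of its group for Acot2 (3.17 RPKM against 1.15 to 1.84), for the PPARα targets Ehhadh (395 RPKM against 216 to 250) and Cyp4a10 (230 RPKM against 80.6 to 112) and for the synthetase Acsl1 (350 RPKM against 215 to 242). These genes were picked from longer lists after their values were seen, and not all genes of those lists followed. The dehydrogenase gene Acadm was highest in replicate 2 (165 RPKM, against 152 RPKM in replicate 1). What set replicate 1 apart was not tested.

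The other type II genes were close to the WT level. Log2 fold changes were -0.20 (95% interval -0.41 to 0.01) for Acot8, -0.02 (-0.24 to 0.20) for Acot12, 0.06 (-0.16 to 0.28) for Acot7 and 0.23 (-0.04 to 0.49) for Acot13. All 4 intervals lay between -0.41 and 0.49, and differences within them are left undecided at this number of libraries. Over the 9 genes the median log2 fold change was -0.02, against 0.03 for all genes tested.

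**Figure D5:**
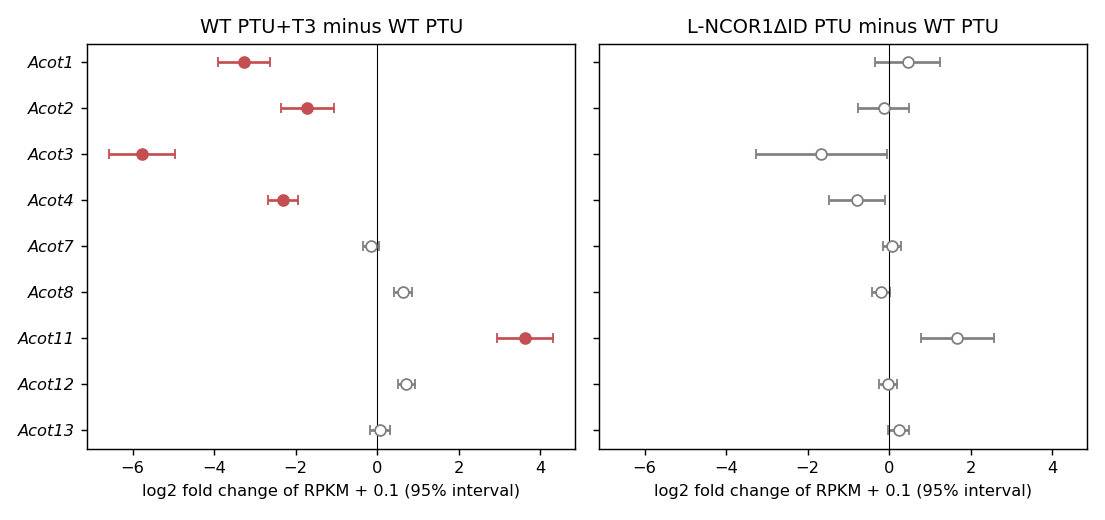
Log2 fold change of RPKM + 0.1 for each of the 9 genes in hyperthyroid WT (left) and hypothyroid L-NCOR1ΔID mice (right), both against the same hypothyroid WT libraries, with 95% intervals from limma and filled red points where the gene was called. On the left Acot1 to Acot4 lie between -5.77 and -1.71 and Acot11 at 3.63, and on the right all points are open.

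The hypothyroid WT libraries differed among themselves in these genes. Replicates 2 and 3 had the higher Acot11 (1.39 and 1.90 RPKM) and the lower Acot3 (7.42 and 8.81 RPKM) and Acot4 (19.1 and 20.02 RPKM), while replicates 1 and 4 had Acot11 at 0.868 and 0.867 RPKM and Acot3 at 18.0 and 18.9 RPKM. Of the 5 T3-responsive genes, Thrsp, Me1, Klf9 and Hr (at or under 0.044 RPKM) were higher in replicates 2 and 3 than in replicates 1 and 4, and Dio1 did not follow this split, at 0.719, 6.64, 57.7 and 8.98 RPKM in replicates 1 to 4. Acot1 did not follow it either, with its highest value in replicate 3. Thrsp, a regulator of lipogenesis, was at 490 and 352 RPKM in replicates 2 and 3 against 209 and 237 RPKM in replicates 1 and 4, and Me1, which encodes malic enzyme, at 29.4 and 34.1 RPKM against 15.01 and 18.8 RPKM. The split was chosen after these values were seen, so that with 4 libraries this is a description and no test. Hormone levels of the single mice were not analysed here.

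Of 8 other thioesterase genes, 5 passed the filter for T3 and 1 was called higher, where 8.28% of all genes tested were. This was Them4, which encodes a mitochondrial thioesterase and stood at 15.2 to 22.03 RPKM against 7.22 to 10.5 RPKM (log2 fold change 1.15, SE 0.14). Baat, which joins bile acids to amino acids and belongs to the same enzyme superfamily as the type I genes, was at 139 to 159 RPKM against 86.5 to 101 RPKM without overlap (0.65, SE 0.08), under the fold threshold. Acot6, the last gene of the cluster, was near the detection limit at 0.21 to 0.387 RPKM in hypothyroid WT and 0.044 to 0.206 RPKM in hyperthyroid mice and was not called. Acot9, a mitochondrial enzyme, went from 0.973 to 1.32 RPKM to 1.33 to 1.78 RPKM and Them6 from 1.25 to 2.53 RPKM to 1.51 to 3.00 RPKM, neither called. Acot5, Acot10 and Them5 stayed at or under 0.129 RPKM in all 12 libraries and were not tested. In L-NCOR1ΔID mice 0 of the 5 tested genes was called by limma.

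The enzymes of the opposite reaction moved in both directions. Of 21 acyl-CoA synthetase genes, 18 were tested for T3, 3 were called higher and 2 lower, with a median log2 fold change of -0.07 against 0.23 for all genes tested. Of all genes tested, 8.28% were called higher and 3.47% lower, and nothing is read from the counts of this list. The medium-chain synthetase Acsm2 rose from 0.122 to 0.875 RPKM to 3.34 to 6.67 RPKM, and Acss3 (1.36) and Acsf2 (1.17) rose on the log2 scale. Acsl1, the main long-chain synthetase of liver, fell from 221 to 292 RPKM to 107 to 141 RPKM (log2 fold change -1.05, SE 0.11), and Slc27a1, a fatty acid transport protein with synthetase activity, fell with a log2 fold change of -1.19 (SE 0.16). In L-NCOR1ΔID mice 0 of 19 tested synthetase genes was called by limma.

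Of 17 genes for the supply and breakdown of coenzyme A, 16 were in the table and tested, and only Nudt19, a peroxisomal coenzyme A hydrolase, was called after T3. It fell from 22.8 to 29.2 RPKM to 11.3 to 14.4 RPKM (log2 fold change -1.04, SE 0.11), where 3.47% of all genes tested were called lower. Without the fold limit, 4 genes of the list were higher and 1 lower at an adjusted p (limma) under 0.01. Among all 13941 genes tested, 3413 were higher and 1075 lower by that limit. In L-NCOR1ΔID mice Dbi, which encodes the acyl-CoA binding protein, was called higher (413 to 529 RPKM against 269 to 309 RPKM, log2 fold change 0.72, SE 0.10), where 0.725% of all genes were.

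Of 32 genes of fatty acid oxidation and PPARα response, 3 were called higher and 2 lower after T3. Of all genes tested, 8.28% were called higher and 3.47% lower, and nothing is read from the counts of this list. Its median log2 fold change was -0.11, against 0.23 for all genes tested. The fatty acid hydroxylase Cyp4a31 (5.08, SE 0.30), the pyruvate dehydrogenase kinase Pdk4 (1.70, SE 0.40) and the lipid droplet coat gene Plin2 (1.19, SE 0.16) rose on the log2 scale. Cyp4a10 (-1.28, SE 0.32), whose groups overlapped, and the medium-chain acyl-CoA dehydrogenase Acadm (-1.27, SE 0.11) fell. In L-NCOR1ΔID mice the peroxisomal bifunctional enzyme Ehhadh was called higher (216 to 395 RPKM against 78.8 to 93.4 RPKM, log2 fold change 1.64, SE 0.17) and the liver transcription factor gene Creb3l3 lower (-0.65, SE 0.09). In these mice 0.725% of all genes tested were called higher and 0.544% lower.

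Across the 12 libraries, the gene most like Acot3 among 11177 genes with a mean of at least 1 RPKM in some group was Acot4, with a Pearson r of 0.992 on the log2 scale, followed by Fbp1 (0.981) and Nhlrc2 (0.979). Acot4 was in turn most like Acot3, then Hadh (0.986) and Raet1b (0.974). Acot3 and Acot4 both overlap the noncoding gene 4732463B04Rik on the opposite strand. Acot1 was most like Akip1 (0.989), Rdh16 (0.982) and Tnfrsf19 (0.976), and Acot2 most like Dcaf7 (0.962), Adcy6 (0.961) and Wdr45 (0.958). The 12 points share 3 groups, so that these values mostly follow the difference between hormone states.

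Among type II genes, Acot11 was most like its overlapping neighbour Fam151a (0.998), then Tmem135 (0.967) and Alg14 (0.966). Acot12 was most like Usp8 (0.983), Creb1 (0.976) and 2310033P09Rik (0.973), and Acot8 most like Clec16a (0.985), D230025D16Rik (0.983) and Gatad2a (0.976). Acot7, with Rhobtb1 (0.934), Ntan1 (0.933) and 1110034G24Rik (0.913), and Acot13, with Atrnl1 (0.952), Rasgrp2 (0.895) and Rragc (0.894), had the lowest values.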

How the data were processed

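Poly(A)-enriched RNA from 12 mouse livers (4 biological replicates per group) was sequenced. The authors aligned reads to mm9 with STAR and quantified transcripts with HOMER, and RPKM is the unit they deposited. Tool versions, read length and strand setting are not given in the sources used here. Acetylated regions were called broadly by the authors, merged over marks and hormone states and deposited as positions. Columns of per-sample values left unused numbered 0.

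Of 31370 transcripts, 1 had no gene name (at most 0.000785% of summed RPKM) and was left out. Each comparison was fitted by limma 3.58.1 under R 4.3.3, on the log2 of RPKM plus 0.1, letting the prior variance follow the mean and adjusting by Benjamini-Hochberg. Only the 2 groups compared entered a fit, and a gene had to reach 0.1 RPKM (2.14 to 4.28 reads per kilobase) in 4 or more of their libraries. Calls required an adjusted p below 0.01, with T3 calls also limited to log2 changes larger than 1. The procedure was run on simulated data with normally distributed noise and large changes only. That run does not show how well small changes, or values from few reads, are called.

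The members and all lists were chosen with earlier results of these data known. Named genes are all members and other thioesterases, up to 3 called genes with the largest rise and fall in each related list, the T3-responsive genes, Ncor1 and the 3 genes most like each member. Markers of sinusoidal endothelium (1 of 4 called higher after T3), stellate cells and fibroblasts (0 of 5), cholangiocytes (1 of 4), blood cells (2 of 5), adipocytes (0 of 1 tested), neurons (1 of 1 tested, Syt1, lower) and hepatocytes (2 of 7, Alb and Ttr, lower) were also read. Alternatives were other pseudocounts, filters, thresholds, scalings and transcripts, all libraries in 1 fit, no trend, a replicate block and each library left out. Read numbers came from the transcript length at which all 12 values of a gene were nearest to whole reads. Python 3.11.15, numpy 2.4.6, pandas 2.3.3, scipy 1.17.1, biopython 1.88 and matplotlib 3.10.9 were used.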

Additional observations from a re-analysis of the deposited data

Results flagged for a closer look

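In groups of 4, a value was set apart when its gap to the nearest library was larger, as a share of the range of the group, than Dixon's critical value, which chance alone gives in about 1 of 20 groups. Of 27 combinations of gene and group, 2 were set apart. Acot1 was at 23.037 RPKM in L-NCOR1ΔID replicate 1, where the other libraries of the group were at 5.958 to 8.809 RPKM. Acot3 was at 0.271 RPKM in hyperthyroid WT replicate 3, where the others were at 0.074 to 0.107 RPKM, a value that rests on 15 reads against 5 to 7.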

How the results depend on the processing

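The number of members called lower after T3 was 4 under all alternatives run but a pseudocount of 1 RPKM, where it was 3 because Acot2 missed the fold threshold. The number called higher was 1 (Acot11), and 3 with no limit on the fold change, which adds Acot8 and Acot12. In L-NCOR1ΔID mice 0 members were called higher and 0 lower under every alternative by the limits of each. Acot11 was near a limit of 0.05, with an adjusted p (limma) of 0.0515, 0.049 with a mean of at least 1 RPKM, 0.03 with all 12 libraries in 1 fit and 0.014 without L-NCOR1ΔID replicate 2, within a range of 0.014 to 0.13. Leaving out each library in turn changed none of these counts. Some log2 fold changes near 0 changed sign or reached 0.00. Acot13 after T3 went to -0.13 with equal medians. In L-NCOR1ΔID mice, without each library in turn, Acot12 ranged from -0.10 to 0.03, Acot7 from 0.00 to 0.13 and Acot2 from -0.40 to 0.07. With the replicate number as a block, member calls were 4 lower and 1 higher after T3 and 0 in L-NCOR1ΔID mice, while calls over all genes in L-NCOR1ΔID mice went from 100 higher and 75 lower to 20 and 25. Replicate numbers are not stated to pair the mice, and same-numbered libraries did not deviate together (r from -0.06 to 0.07 for T3 and from -0.12 to 0.17 for L-NCOR1ΔID). Without single libraries the L-NCOR1ΔID counts over all genes ranged from 36 to 110 higher and from 28 to 77 lower. A pseudocount of 1 RPKM gave 575 higher and 319 lower genes for T3, and no limit on the fold change 3413 and 1075. An adjusted p under 0.05 gave 344 higher and 257 lower genes in L-NCOR1ΔID mice. Low read numbers (5 to 15) and the pseudocount limit how well the fall of Acot3 is sized, from -3.55 to -6.56.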
